A study of Oncorhynchus mykiss with 6 samples.

Results

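The miR-99 and miR-100 family supplied the second most abundant microRNA of these trout livers, miR-100-5p. The small RNA table held 12 rows of the family among its 1427 rows, 7 named miR-99 and 5 named miR-100. They were chosen by name, taking every arm, letter, length variant and fish prefix. No measured value entered that rule, but the family was taken up with its high counts and its lower level in fasted libraries already known. Its levels and fold changes are therefore a description, and the p-values beside them support nothing further.

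Juvenile rainbow trout, Oncorhynchus mykiss, of wild-type genotype and with the strain label Walbaum gave the livers. The 3 control libraries, numbered 3, 4 and 6, carried no treatment label, and the 3 fasted libraries, numbered 3, 4 and 5, came from fish fasted for 4 days. The study asked whether a short fast alters the microRNAs of the liver. The labels do not tie libraries to single fish, so p-values measure only how these libraries spread, and that spread may be technical. Table counts ran from 737686 in fasted replicate 3 to 4203708 in control replicate 3. The hepatocyte markers miR-122, miR-192 and miR-194 were all present and together made up 36.6 to 41.8% of the counts in control and 37.5 to 44.2% in fasted libraries.

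A microRNA is cut as a short duplex from a hairpin, and usually one arm, the 5p arm in miR-99 and miR-100, is loaded into Argonaute while the other is degraded. Bases 2 to 8 of the loaded strand, the seed, do most of the pairing with target transcripts. In human and mouse cells miR-99 and miR-100 are known to repress mTOR, the kinase that couples nutrients and insulin to growth, and IGF1R, the receptor for insulin-like growth factor 1. In vertebrate genomes their genes lie beside those of let-7 and miR-125, and they are grouped with miR-10, whose seed is similar but not the same.

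The sequences of the 5 most abundant 5p rows are shown first, because the family's counts lie almost wholly in them. They are read 5′ to 3′ from the deposited table, with the seed in capitals.
dre-miR-100-5p: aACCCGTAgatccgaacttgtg
ssa-miR-100a-5p_R+1: aACCCGTAgatccgaacttgtgt
dre-miR-99_R-1: aACCCGTAgatccgatcttgt
dre-miR-99_R+1: aACCCGTAgatccgatcttgtga
ccr-miR-99_L+3R+2_1ss19TA: aTCAACCCgtagatccgaacttgtga

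The first 4 of these sequences began at the same base and shared the seed ACCCGTA. Over their common length, miR-99 differed from miR-100 by the single substitution A16T, counted from 1 at the 5′ end of dre-miR-100-5p. The 2 miR-100 rows differed only by a T at the 3′ end, and the 2 miR-99 rows were 21 and 23 nt long. A seed search of the whole table found ACCCGTA in 6 rows, all of them in the family, and these 6 rows held 99.96% of the family's counts. The fifth sequence begins 3 bases earlier, so that its seed reads TCAACCC.

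Names and sequences did not match throughout. Of the 7 rows named miR-99, 2 had the base that marks miR-100: the row ccr-miR-99_L+3R+2_1ss19TA and a row of 0.5 counts in all, dre-miR-99_R+5_1ss16TA. Their suffixes record the exchange. The prefixes name the fish whose microRNA entry was matched (dre zebrafish, ssa Atlantic salmon, ccr common carp), not the fish sequenced. Because reads that fitted several sequences were divided between rows, single length variants are uncertain, and the family sum is the firmer value.

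The 3p arms were represented by 3 rows, printed here because they come from the other strand of the same hairpins and are compared with the 5p rows.
ssa-miR-100a-3p: aCAAGCTTgattctataggtct
dre-miR-100-2-3p: cAAGCTCGtgtctataggtatg
ssa-miR-99-3p: cAAGCTCCtctctgtgggtct

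The family as a whole was abundant in every library, and its level spread more widely among fasted than among control libraries. Summed over the 12 rows it took 25.7, 21.4 and 27.8% of the table counts of control replicates 3, 4 and 6. The fasted replicates 3, 4 and 5 gave 8.93, 25.6 and 15.9%. Fasted replicate 4 lay within the control range, and fasted replicates 3 and 5 lay below it. The group means were 25.0% ± 3.28 and 16.8% ± 8.40 (SD, n = 3), a difference of -8.15 percentage points (p = 0.2 by an exact permutation test, two-sided, which cannot go below 0.1 with 3 libraries against 3). The 95% Wilson interval of the lowest share was 8.86 to 8.99%. It covers counting error only, which was small beside the spread between libraries. Without fasted replicate 3 the difference was -4.199 points, and without fasted replicate 4 it was -12.6 points. It was -12.9 points when miR-122 rows were left out of the total.

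**Figure D1:**
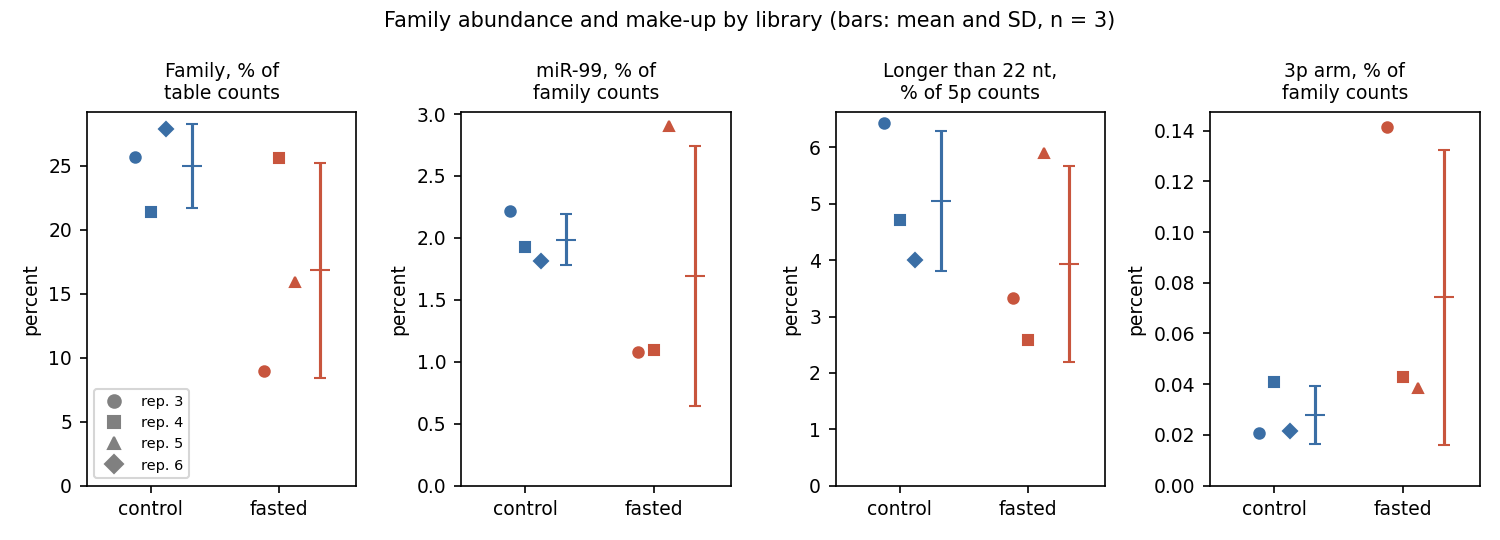
Family abundance and make-up in each library, in percent, for the family's share of table counts, the miR-99 part of the family, the part of 5p counts in sequences over 22 nt and the 3p arm; points are libraries, marked by replicate number, and bars give the mean and SD (n = 3). The family share of fasted replicate 4, 25.6%, sits among the controls, and fasted replicate 3 has the highest 3p share, 0.141%.

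The libraries with the lowest family share also had the smallest part of their reads in the table. Table counts were 45.0, 56.4 and 61.0% of the mappable reads in the control libraries, and 15.1, 47.8 and 34.9% in fasted replicates 3, 4 and 5. The libraries lowest in one measure, fasted replicates 3 and 5, were also the lowest in the other. The same libraries had the highest share of predicted small RNAs, 1.41 and 0.555% against 0.145 to 0.275% in the other 4 libraries. They also had the highest shares of leucocyte, muscle and pancreas markers. The hepatocyte markers took 44.2% in fasted replicate 3, the highest of all libraries, and 37.5% in fasted replicate 5, within the control range. The part of these measures in the family's level was not tested.

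**Figure D2:**
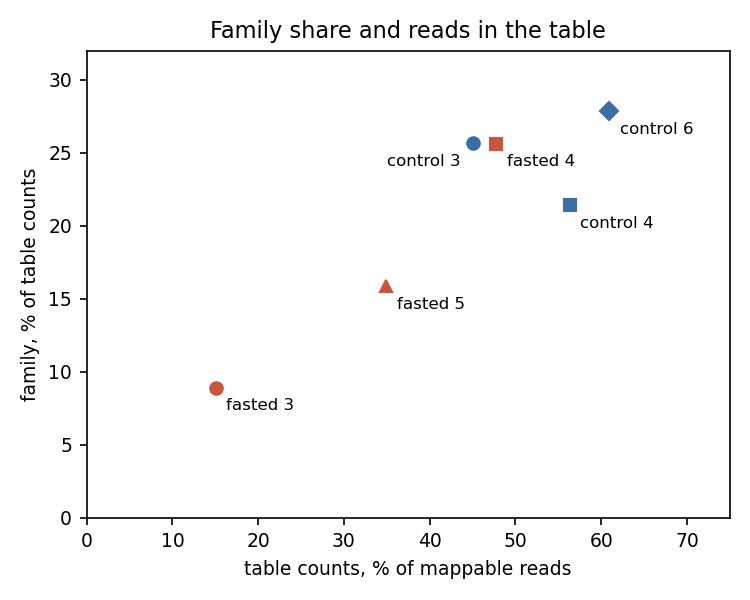
The family's share of table counts (vertical axis, percent) against the share of mappable reads that reached the table (horizontal axis, percent), 1 point per library. Fasted replicates 3 and 5 lie lowest on both axes, at 15.1 and 34.9% of mappable reads, and fasted replicate 4 lies beside control replicate 3.

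Of the 12 rows, 7 had counts in all 6 libraries and enough of them to be tested between fasted and control liver, and 0 were called. The test was edgeR's quasi-likelihood F test over the whole table, with TMM scaling and a call at a Benjamini-Hochberg adjusted p under 0.05. CPM relate each count to the library total multiplied by a TMM factor, so they are not plain shares of the table counts. The test called 0% of all 309 tested rows, 26 of which had an unadjusted p under 0.05. The 7 family rows had edgeR adjusted p-values from 0.504 to 0.962. DESeq2 called 1.29% of the tested rows and 0 of the family's, whose DESeq2 adjusted p-values ran from 0.238 to 0.972.

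The main mature sequence, dre-miR-100-5p, was the second most abundant row of the table in all 6 libraries. Its level was 266604, 240190 and 345143 CPM in control replicates 3, 4 and 6. In fasted replicates 3, 4 and 5 it was 52032, 275542 and 120412 CPM. Fasted replicates 3 and 5 lay below every control library, while fasted replicate 4 lay between the controls, so the groups overlapped. The log2 fold change was -0.93 (SE 0.54, 95% interval -2.16 to 0.31). It was -0.46 without fasted replicate 3, -0.61 without fasted replicate 5 and -1.73 without fasted replicate 4, so that its size turned on which fasted library was counted. This row alone held 91.6 to 94.4% of the family's counts in control and 91.5 to 96.4% in fasted libraries.

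The longer form with a 3′ T, ssa-miR-100a-5p_R+1, had 18016, 11564 and 13885 CPM in the control libraries. In fasted replicates 3, 4 and 5 it had 1744, 7081 and 7336 CPM. Every fasted library lay below every control library, with and without TMM scaling. The log2 fold change was -1.43 (SE 0.53, 95% interval -2.65 to -0.21; edgeR adjusted p = 0.504), and -0.94 without fasted replicate 3.

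The shorter miR-99 form, dre-miR-99_R-1, had 5770, 4425 and 5867 CPM in the control libraries and 522, 2830 and 3406 CPM in fasted replicates 3, 4 and 5. The 23-nt form, dre-miR-99_R+1, had 647, 499 and 740 CPM in control and 51.3, 276 and 394 CPM in fasted libraries. Both lay below the controls in every fasted library after TMM scaling. As plain shares of the table counts, fasted replicate 5 lay above control replicate 4 in both rows, so there the groups overlapped. The log2 fold changes were -1.25 (SE 0.61) and -1.39 (SE 0.64), and without fasted replicate 3 they were -0.72 and -0.86.

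In all, the fasted libraries lay entirely below the controls in 3 of the 7 tested rows, and entirely above them in 0. Over all tested rows the same was true of 8.74% below and of 8.74% above. The 3 rows share a seed and nearly all their bases, and reads may have been divided between them, so they are not separate observations. By plain share of the table counts only ssa-miR-100a-5p_R+1 kept this separation. The percentages over all tested rows are after TMM scaling. None was computed for plain shares, so that count has no background beside it.

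**Figure D3:**
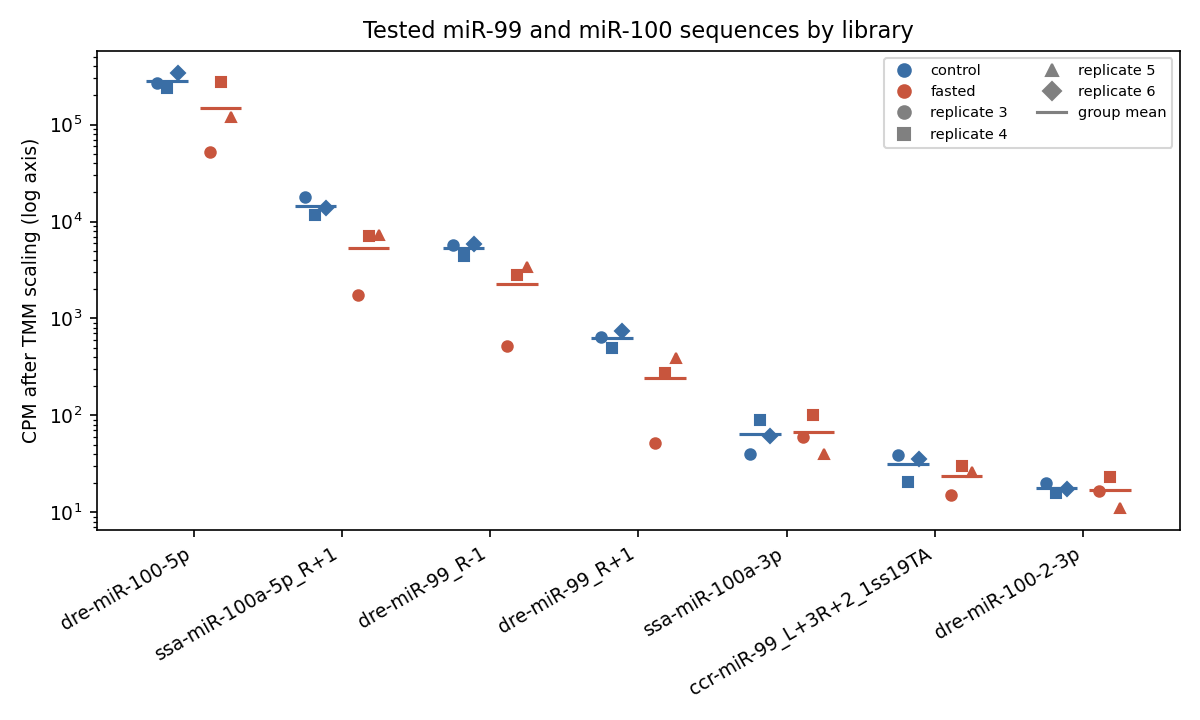
CPM after TMM scaling (log axis) of the 7 tested rows in each library, with control and fasted libraries in different colours, symbols for replicate numbers and lines for the group means. In the 4 most abundant rows fasted replicate 3 is the lowest library, and in the 3p rows the groups lie over each other.

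The 5′-extended row ccr-miR-99_L+3R+2_1ss19TA had 38.6, 20.6 and 35.6 CPM in control and 14.9, 30.2 and 26.1 CPM in fasted libraries, with overlapping groups. The fold change on the log2 scale was -0.42 (SE 0.42), but 0.077 when libraries were scaled by their totals alone. It was -0.27 without control replicate 3, -0.11 without fasted replicate 3 and -0.64 without fasted replicate 4.

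The 3p strands, usually the degraded passenger strands of these hairpins, had fold changes near 0 after TMM scaling. ssa-miR-100a-3p had 39.9, 89.1 and 61.4 CPM in control and 60.4, 99.6 and 39.6 CPM in fasted libraries, a log2 fold change of 0.08 (SE 0.46, 95% interval -0.98 to 1.14). dre-miR-100-2-3p had 20.0, 15.9 and 17.6 CPM in control and 16.5, 23.3 and 11.1 CPM in fasted libraries, a log2 fold change of -0.08 (SE 0.40). In both rows the fasted values ranged around the controls, and the sign of each fold change turned when single libraries were left out. With library totals as the only scaling the log2 fold changes were 0.60 and 0.46, and the median of all tested rows was then 0.59.

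**Figure D4:**
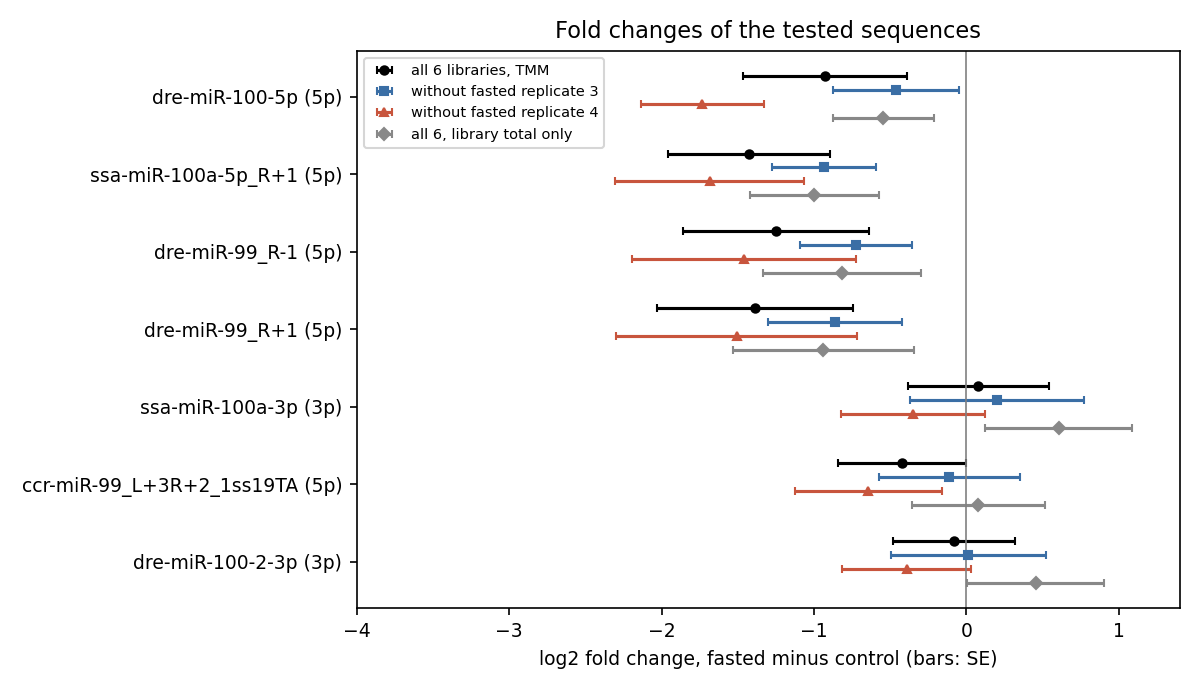
Log2 fold changes (fasted minus control, horizontal axis) of the 7 tested rows with bars of 1 SE, for all 6 libraries after TMM scaling, without fasted replicate 3, without fasted replicate 4 and with library totals as the only scaling. The 4 most abundant 5p rows lie below 0 in each setting shown, while the values of the 3p rows lie on both sides of 0.

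Within the family the 3p arm was a trace in every library. Its counts were 225, 86 and 253 in the control libraries and 93, 158 and 73 in fasted replicates 3, 4 and 5. These were 0.0209, 0.0409 and 0.0217% of the family's counts in control and 0.141, 0.0430 and 0.0385% in fasted libraries. Fasted replicate 3 stood apart, with a 95% Wilson interval of 0.115 to 0.173%, and fasted replicates 4 and 5 lay close to control replicate 4. Put the other way, 707 5p counts were recorded per 3p count in fasted replicate 3, against 2324 to 4793 in the other 5 libraries. The groups differed by 0.0465 percentage points (p = 0.2 by the exact permutation test), and by 0.0130 points without fasted replicate 3.

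The ratio of the arms was compared with that of other microRNAs. For 30 microRNA numbers with both arms measured, limma on the log2 ratio of 5p to 3p CPM called 0% at an adjusted p under 0.05. The log2 ratio of miR-100 was 12.2, 11.2 and 12.1 in control and 9.44, 11.2 and 11.3 in fasted libraries. Its difference was -1.22 (SE 0.52; limma adjusted p = 0.200), and -0.63 without fasted replicate 3. Across the 30 numbers the median difference was -0.25 and 16 lay below 0. The difference of miR-100 lay between those of miR-301, -1.38, and miR-455, -1.19, at the low end of the 30. Its unadjusted limma p was 0.0354, and 6 of the 30 numbers were under 0.05. Whether a lower ratio is particular to miR-100 was not tested.

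The balance of miR-99 to miR-100 varied more among fasted than among control libraries. Rows named miR-99 were 2.22, 1.93 and 1.82% of the family's counts in control. In fasted replicates 3, 4 and 5 they were 1.08, 1.097 and 2.91%. Fasted replicates 3 and 4 lay below all controls and fasted replicate 5 above them. The means were 1.99% ± 0.208 and 1.70% ± 1.05 (SD, n = 3; p = 0.6 by the exact permutation test). The difference of -0.291 points was 0.0156 points without fasted replicate 3 and -0.897 points without fasted replicate 5. Fasted replicates 3 and 4 had the lowest and the highest family share of the fasted libraries, yet their miR-99 parts were close.

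The length of the 5p strand overlapped between the groups as well. Sequences longer than the 22 nt of dre-miR-100-5p made up 6.43, 4.71 and 4.01% of the 5p counts in control and 3.33, 2.59 and 5.90% in fasted libraries. The means were 5.05% ± 1.24 and 3.94% ± 1.74 (SD, n = 3; p = 0.4 by the exact permutation test). The difference of -1.11 points was -0.421 points without control replicate 3, -0.434 points without fasted replicate 4 and -2.09 points without fasted replicate 5. The mean length of the 5p counts was 22.02 to 22.04 nt in control and 22.02 to 22.03 nt in fasted libraries. Adjusted over the 4 family measures, the permutation p-values were between 0.4 and 0.6.

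The remaining 5 rows held 13 counts or fewer each over all libraries and were not tested. ola-miR-100_L+5R+3, which starts 5 bases before the miR-100 core, had 13 counts. ssa-miR-99-3p had 3 and 1 counts in control replicates 3 and 6 and 0 elsewhere. ipu-miR-99b_R+1_1ss1AG, with A1G and A16T against dre-miR-100-5p, had 3.75 counts. The 15-nt fragment dre-miR-99_L-8R+1 had 2 and 1 counts in fasted replicates 3 and 5 and 0 elsewhere, and the 27-nt dre-miR-99_R+5_1ss16TA had 0.5. A count of 3, taken as the floor, is 4.07 CPM before TMM scaling in the library with the fewest table counts. No difference was therefore detectable in these rows at this depth.

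Rows of let-7, miR-125 and miR-10 gave the comparison for the family. They were taken by name, without trout genome positions. Of the let-7 rows, regulators of developmental timing and metabolism, 24 were tested, with 11 above 0, 13 below and a median log2 fold change of -0.02. Of miR-125, a family known in blood cell and stromal biology, 3 rows were tested, all below 0, with a median of -0.22. That median was 0.22 without fasted replicate 5, -0.14 without fasted replicate 3 and -0.55 without fasted replicate 4. Among the 309 tested rows of the table, 154 were below 0 and the median was 0.01. These fold changes are after TMM scaling. By plain share of table counts, all let-7 rows took 6.75, 6.34 and 6.73% in control and 8.07, 6.17 and 9.18% in fasted libraries. The miR-125 rows took 0.571, 0.602 and 0.745% in control and 0.692, 1.12 and 0.421% in fasted libraries. For miR-10 the shares were 0.472, 0.354 and 0.520% in control and 0.527, 0.441 and 0.496% in fasted libraries. None of the let-7, miR-125 or miR-10 rows was called by edgeR (unadjusted p under 0.05 in 1, 0 and 1 of them), nor was a difference between these families and miR-99 and miR-100 tested.

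The most abundant rows of let-7, miR-125 and miR-10 did not follow miR-100-5p in every library. dre-let-7a had 42696, 41484 and 52065 CPM in control and 31906, 48720 and 42829 CPM in fasted libraries. fru-let-7e had 12614, 14016 and 16576 CPM in control and 5588, 8276 and 12636 CPM in fasted libraries. The log2 fold changes of these let-7 rows were -0.14 (SE 0.29) and -0.71 (SE 0.36), with overlapping groups in both. ccr-miR-125b had 5863, 6696 and 9292 CPM in control and 3724, 11835 and 3185 CPM in fasted libraries. Like miR-100-5p, it was high in fasted replicate 4 and low in replicates 3 and 5. ipu-miR-125a had 466, 399 and 423 CPM in control and 398, 504 and 238 CPM in fasted libraries. The 2 tested rows of miR-10, which has the related seed ACCCTGT, both lay below 0 after TMM scaling. The more abundant, dre-miR-10c-5p, had 5144, 3924 and 6078 CPM in control and 3155, 4833 and 4020 CPM in fasted libraries, with overlapping groups and a log2 fold change of -0.34 (SE 0.33). The rarer dre-miR-10b-5p_R-1 had 201, 269 and 555 CPM in control and 43.0, 70.8 and 69.5 CPM in fasted libraries and did not overlap between the groups. On the log2 scale its fold change was -2.48 with an SE of 0.48. Its edgeR adjusted p of 0.245 was the smallest of all 309 tested rows.

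The 5 rows whose log2 CPM after TMM scaling was most like that of dre-miR-100-5p over the 6 libraries were outside the family. The family has only 7 of the 309 tested rows. The highest Pearson correlations were 0.98 for dre-miR-30e-5p_R-2, 0.94 for the predicted row PC-3p-1586_656, 0.93 for the hepatocyte microRNA dre-miR-122_R-1, 0.93 for ssa-miR-181a-4-3p and 0.93 for ssa-miR-26d-5p. These correlations rest on 6 libraries, and all rows of a library share its depth and scaling. The TMM factors were highest in fasted replicates 3 and 5, 1.64 and 1.21, which lowers the CPM of every row there. By plain share of the table counts, the hepatocyte markers, miR-122 among them, were highest in fasted replicate 3, at 44.2%. There the plain share of dre-miR-100-5p was at its lowest, 8.53%. After TMM scaling dre-miR-122_R-1 was lowest in that library as well, at 257737 CPM. No correlation was computed on plain shares, so how far the likeness comes from the scaling was not tested. The other 5p family rows ranged from 0.82 to 0.90 and ranked 9, 10, 16 and 24 among the tested rows. The 3p rows had 0.45 (dre-miR-100-2-3p, rank 74) and 0.25 (ssa-miR-100a-3p, rank 109).

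Markers of other cell types were measured because miR-100 is known in connective tissue and vessels as well as in hepatocytes. The stromal and smooth muscle markers miR-143, miR-145, miR-199 and miR-214, all 4 present, summed to 4.53 to 5.87% of the counts in control and 4.40 to 5.66% in fasted libraries. The endothelial marker miR-126 had 0.638 to 1.28% and 0.547 to 1.36%. Leucocyte markers, 4 of 4 present, had 0.0818 to 0.178% and 0.0712 to 0.278%. Erythrocyte markers, with miR-486 at 0, had 0.172 to 0.358% and 0.113 to 0.893%. Muscle markers, 3 of 3 present, had 0.00106 to 0.00450% and 0.000873 to 0.0167%, and pancreas markers, 3 of 3 present, 0.00940 to 0.0118% and 0.0156 to 0.0286%. The pancreas ranges did not overlap, but how often other rows separate the groups by plain share was not computed. With library totals as the only scaling, the median log2 fold change of all tested rows was 0.59. In leucocyte, muscle and pancreas markers the highest libraries were fasted replicates 3 and 5, those lowest in the family's share. Their leucocyte sums were 0.278 and 0.267%, their muscle sums 0.0167 and 0.0128%, and their pancreas sums 0.0286 and 0.0223%. Erythrocyte markers were highest in fasted replicate 5, and hepatocyte markers in fasted replicate 3, at 44.2%. The part of these cells in the family's level was not tested, and in whole liver fewer cells of a type and less RNA per cell cannot be told apart.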

How the data were processed

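Small RNA, described as 15 to 50 nt, was sequenced from 6 liver libraries on an Illumina GAIIx, with RNA taken up in Trizol, per the labels' protocols and design text. The authors deposited a read summary, with counts of reads per library before and after adaptor removal, per the file headers, and a miRNA table. The table's raw values are expected counts deposited by the authors, 14.4 to 20.8% of a library's values being not whole (tolerance 1e-06), so reads were divided between related sequences. The authors also deposited a normalized signal, the expected count divided by a library size parameter, with 0 written as 0.001. The submitters' processing notes name Bowtie 1.1.1. The counting program and build were not given in the sources used here, and no genome position was assigned.

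Expected counts were rounded and fitted by edgeR's quasi-likelihood method (version 4.0.16, R 4.3.3) with TMM and no covariate, after filterByExpr at its defaults (10 for the count, 15 for the total), adjusting over the 309 rows kept. Untested rows were given CPM on the same library sizes. TMM factors ran from 0.762 to 1.64, the latter in fasted replicate 3. DESeq2 1.42.0, limma 3.58.1 (voom, or log2 of normalized signal plus 1), other scalings, no filter, rows summed by mature name, a replicate block and each library left out were the alternatives. The 5p to 3p ratio used sums per miRNA number, at least 10 CPM in each arm and a pseudocount of 1 CPM. Shares used unscaled counts, with exact permutation tests in scipy 1.17.1. The edgeR and limma steps were tested on simulated data.

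The members and lists were chosen with earlier results of these data known. By rule, values were given for each library for the most abundant member rows, all others by counts, for the 5 rows most like the most abundant member, and for the most abundant rows of let-7, miR-125 and miR-10. The split by base, the fits on summed member rows, the fit on known rows only and the 5p to 3p ratio were added after seeing the data.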

Additional observations from a re-analysis of the deposited data

How the results depend on the processing

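The 4 most abundant 5p rows kept a log2 fold change below 0 in all 16 alternatives tried for each, and 0 family rows were called in any. In the whole table edgeR called 0 rows, against 11 without the count filter and 4 with DESeq2, and 0 to 1 with a library left out; the cause was not tested. The library total as the only scaling moved the median of all rows from 0.01 to 0.59. With it dre-miR-100-5p had -0.55, ccr-miR-99_L+3R+2_1ss19TA 0.077 and dre-miR-100-2-3p 0.46, ssa-miR-100a-3p 0.60 and the 3p rows summed 0.57, the miR-125 median was 0.21, and 5 of 29 let-7, miR-125 and miR-10 rows lay below 0, against 18. dre-miR-100-2-3p also turned to 0.045 with the upper quartile and 0.033 with rows summed by mature name. With a library left out it ran from -0.39 to 0.30, ssa-miR-100a-3p from -0.35 to 0.51, and the 3p rows summed from -0.37 to 0.46. The difference in the miR-99 share ran from -0.897 to 0.0156 percentage points, turning positive without fasted replicate 3 or 4. All member rows summed to 1 row, a fit chosen after seeing the data, had -0.83, and from -1.74 to -0.41 with a library left out. Both groups have libraries numbered 3 and 4, whose deviations from the group means correlated at 0.44 and -0.04 within a number. With 3 libraries in each group these correlations cannot decide whether libraries of the same number are paired. With a replicate block in the edgeR fit, dre-miR-100-5p had -1.08 and dre-miR-100-2-3p 0.11, and 0 rows were called. The rows dre-miR-99_R-1 and dre-miR-99_R+1 then had -2.05 and -2.22. For the shares no block was fitted. Fasted minus control was averaged over replicate numbers 3 and 4 only, and the other library of each group was left out. That mean was -6.25 percentage points for the family share, -0.982 points for the miR-99 share and -2.61 points for the longer 5p share. Counts were low in ccr-miR-99_L+3R+2_1ss19TA, 16.8 to 142.9 a library, in the 3p rows, 73 to 253 together, and in the untested rows.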

Other observations

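The table holds 3 hairpin-arm rows named after mir-99 or mir-100, in lower case, which fell outside the naming rule. The row dre-mir-99-1-p3_2ss8CT17GA is the sequence of ssa-miR-100a-3p with a C added at its 3′ end, although it is named after miR-99. It had 15, 3 and 7.5 counts in control replicates 3, 4 and 6, and 2.5, 1.5 and 6 counts in fasted replicates 3, 4 and 5. The 16-nt row dre-mir-99-2-p3_1ss16CG had 22, 0 and 5.5 counts in control and 38.5, 6.5 and 14 counts in fasted libraries. The highest was in fasted replicate 3, the library with the fewest table counts, though not with the fewest mappable reads.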
